A study of Mus musculus with 42 samples.

Results

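Squamous cell carcinomas of mouse skin were set against papillomas labelled low-risk, to find what differs between malignant and benign tumours raised with the same agents. The tumours were chosen by their labels alone: 6 arrays of carcinomas and 10 arrays of low-risk papillomas, 16 of the 42 arrays of the series. A pair of the low-risk arrays carried the RNA of 1 tumour with the dyes exchanged and was averaged, so 6 carcinomas faced 9 low-risk papillomas, or 15 of the 31 labelled tumours and skins. All 15 came from female Sencar mice, a stock bred for its sensitivity to skin carcinogens, initiated at 7 to 8 weeks of age. The carcinomas had received DMBA, which mutates keratinocytes, and TPA, a phorbol ester that promotes their growth, for what the label calls many weeks. The low-risk papillomas had received the same agents, with no duration given, so the length of treatment may differ between the groups. RNA of each whole tumour, epithelium and stroma together, was set against a universal mouse reference RNA on an oligonucleotide array with 2 colours. High-risk papillomas of Sencar mice given the same agents (10 replicates) and untreated normal skins, whose labels give no strain (6 replicates), shared the fit. Low-risk papillomas 2 and 8 share the number in their tumour code and may come from 1 mouse. The same holds for high-risk papillomas 1 and 2, for 6 and 10, and for a further high-risk pair. The fit counted the members of each pair as separate replicates, so its estimate of spread may rest on fewer independent mice than replicates.

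Papillomas are outgrowths of keratinocytes that still mature from a dividing basal layer to a dead horny layer, and carcinomas are tumours in which this order breaks down and cells invade. In the last steps of maturation keratinocytes cross-link small precursor proteins (loricrin, involucrin, the small proline-rich and late cornified envelope proteins, and the filaggrin family) into the cornified envelope, join the cells by special desmosomes, and then cut those joints with kallikrein proteases held in check by inhibitors such as Spink5. These late genes are commonly used as markers of how far a squamous tumour still matures.

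A level is given as the log2 ratio of tumour over reference RNA, centred on the median of its array, so that 0 marks the array's middle probe and not absence. The direction of the ratio is likely rather than stated, taken from the dyes in the labels: keratinocyte markers had a deposited median below 0 on each of the 31 arrays where Cy3 marked the sample and of 1.74 on the array with the dyes exchanged. Carcinoma arrays held values for 16936 to 21404 probes and low-risk arrays for 16286 to 21435, and the number of arrays limits the precision. Over the 8 tested markers of keratinocytes, leaving out missing values, means were 1.43 to 2.46 in carcinomas and 1.68 to 3.83 in low-risk papillomas. They lay above 0 in every tumour. The array of carcinoma 6 correlated at r = 0.984 across probes with that of normal skin 1, with a median absolute difference of 0.065, so the calls are also given without that pair. The 2 arrays of the averaged low-risk tumour correlated at 0.306, against a median of 0.526 over the other 44 pairs of low-risk arrays. By the pattern of their empty probes 4 carcinomas (1 to 4) and 3 low-risk papillomas (6, 7 and 10) lie in 1 array set, carcinomas 5 and 6 in another, and the other 6 low-risk papillomas in a set with no carcinoma. The deposited log2 ratios were less spread on carcinoma arrays (SD over probes 0.561 to 1.05) than on low-risk arrays (1.04 to 1.95). Within the shared set the SD was 0.871 to 1.05 for carcinomas and 1.04 to 1.35 for low-risk papillomas.

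With 0.05 as the limit for the adjusted p of limma's moderated test, 212 of 18904 probes (1.12%) were called. Carcinomas were higher at 67 of them and lower at 145. Over all 18904 probes 9348 had a change above 0 and 9556 below 0. Without adjustment 3045 of the 18904 probes had a p under that limit. The counts of list members at an unadjusted p under 0.05 are to be read beside that share. Probes called higher were 0.354% of those tested and probes called lower 0.767%. Gene by gene, 144 of the 145 probes called lower had a low-risk mean above 0, and 63 of the 67 called higher had a low-risk mean below 0. The carcinoma mean lay nearer to 0 than the low-risk mean for 141 of the 145 and for 52 of the 67. This goes the same way as the narrower spread of the carcinoma arrays, whose part in the calls was not tested. After the spreads of all arrays were made equal, 116 probes were called (49 higher, 67 lower), 40 of the 212 among them. The split was 88 higher and 92 lower after quantile normalization, and 80 higher and 111 lower with no centring. Of the 58 genes named below that passed, 14 still passed with equal spreads: Ppbp, Saraf, Lfng, Jdp2, Osr2, Pnmt, Dusp4, Ly6c1, Fut7, Lrif1, Smyd5, Ear3, Sec14l2 and Tom1l2. A lower level in a whole tumour can mean fewer cells of a type or less RNA per cell, which cannot be told apart here.

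The array set moved with the groups. Within the shared set, with 4 carcinomas against 3 low-risk papillomas, limma called 19 of 18828 probes (0.101%), and with the set as a block it called 1 of 18895 (0.00529%), the platelet chemokine gene Ppbp. The 212 were chosen by their p over tumours that include those of the shared set, so that their direction there, and in the other alternatives, was largely fixed by that choice and is no sign of stability. The labels carry a database number for each array. Within the later range of these numbers, where 6 carcinomas faced 6 low-risk papillomas, 194 probes were called (1.03%), 102 of them also among the 212. Without carcinoma 6 and normal skin 1, 144 of 18612 probes were called (0.774%).

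**Figure D1:**
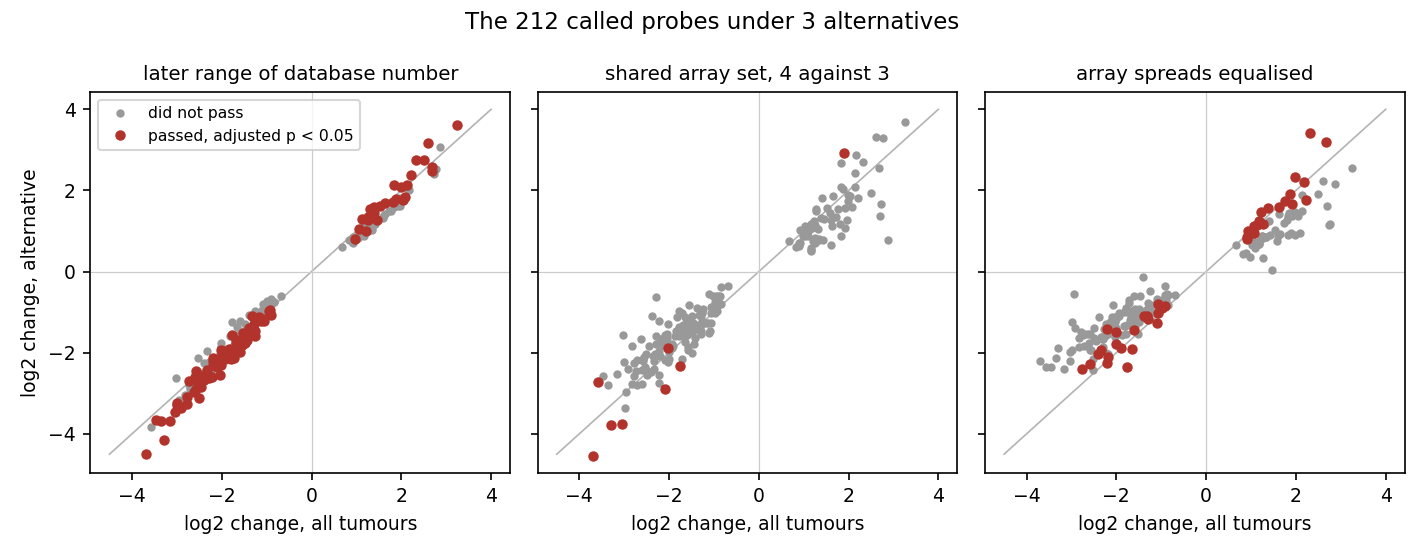
Each point is one of the 212 called probes, with its log2 change (carcinoma over low-risk papilloma) over all tumours on the x axis and under an alternative on the y axis; the line marks equal change and red points passed under the alternative. The points stay on their side of 0, which the choice of probes on the same tumours largely fixes, while 102, 8 and 40 of the 212 passed within the later range, within the shared array set and after the array spreads were made equal.

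Of the precursors of the cornified envelope a few fell in carcinomas and most did not pass. Of 32 tested precursors 4 fell, 0 rose and 28 did not pass, 18 had an unadjusted p under 0.05, and all 32 had a log2 change below 0, with a median of -1.51, against -0.01 over all probes tested. With equal spreads the median was -0.40, 9 of 32 lay above 0 and 0 passed, and 0 passed within the shared set or with the set as a block. The list was chosen with earlier results of these data known, and it leaves out Lelp1, a gene named late cornified envelope-like. Lelp1 was called higher (change 2.04, limma adjusted p = 0.0149), so the shared direction holds for the list as chosen. The 4 that fell were Rptn (repetin, a filaggrin-family protein), Lce1i (a late cornified envelope protein), Sprr2b (a small proline-rich protein) and Kprp (keratinocyte proline-rich protein). Precursors with a value averaged 0.38 to 2.18 in the 6 carcinomas and 2.35 to 3.99 in the 9 low-risk papillomas. These means did not overlap, but each rests on the genes measured in its tumour, which differ between tumours. The lowest tumour was carcinoma 3 and the highest low-risk papilloma 8.

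The promoters of these genes are printed because most lie side by side. Rptn, Lce1i, Sprr2b and Kprp belong to 1 run of neighbouring genes on chromosome 3 that RefSeq's annotation places from Lor to Tchhl1. In that run Lelp1, whose name marks it as a late cornified envelope-like gene, was called higher, so its promoter is set beside those of 3 genes called lower (RefSeq promoter table, GRCm38.p6, 250 bases before to 50 after the start, 5′ to 3′ on the gene's strand: Rptn chr3:93393449-93393748 on the plus strand, Sprr2b chr3:92316455-92316754 on the plus strand, Lce1i chr3:92778850-92779149 on the minus strand and Lelp1 chr3:92142705-92143004 on the minus strand). Capitals mark TGANTCA, the motif of AP-1, a factor that TPA is known to activate, and TATAAA, the TATA box, both searched on both strands with overlaps kept.
Rptn: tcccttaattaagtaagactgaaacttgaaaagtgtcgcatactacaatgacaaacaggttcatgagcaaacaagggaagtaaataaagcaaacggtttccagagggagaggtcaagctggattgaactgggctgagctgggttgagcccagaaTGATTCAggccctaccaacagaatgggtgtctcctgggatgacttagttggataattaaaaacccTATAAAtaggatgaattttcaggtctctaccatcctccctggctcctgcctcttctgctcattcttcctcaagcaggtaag
Sprr2b: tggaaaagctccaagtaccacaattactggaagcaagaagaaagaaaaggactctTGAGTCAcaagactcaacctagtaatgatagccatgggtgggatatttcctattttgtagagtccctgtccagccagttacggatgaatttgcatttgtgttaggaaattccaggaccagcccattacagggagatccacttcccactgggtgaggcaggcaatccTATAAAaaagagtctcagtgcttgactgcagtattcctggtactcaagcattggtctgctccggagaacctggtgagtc
Lce1i: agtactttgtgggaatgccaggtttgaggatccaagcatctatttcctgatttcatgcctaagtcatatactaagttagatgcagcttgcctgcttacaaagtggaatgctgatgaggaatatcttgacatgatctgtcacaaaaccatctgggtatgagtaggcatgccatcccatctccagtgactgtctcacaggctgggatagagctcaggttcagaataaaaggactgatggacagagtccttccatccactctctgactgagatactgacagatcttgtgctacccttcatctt
Lelp1: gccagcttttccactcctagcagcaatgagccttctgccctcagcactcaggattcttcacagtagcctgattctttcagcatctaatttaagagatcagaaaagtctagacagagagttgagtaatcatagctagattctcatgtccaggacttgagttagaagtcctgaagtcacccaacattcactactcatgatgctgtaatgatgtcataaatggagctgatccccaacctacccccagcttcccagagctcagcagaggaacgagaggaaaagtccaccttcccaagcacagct
The Rptn and Sprr2b windows each held 1 TGANTCA and 1 TATAAA, and the Lce1i and Lelp1 windows held neither. TGANTCA was present in 14 of the 28 envelope precursors with a promoter in the table, and in 7.93% of all 27025 promoters of this length. TATAAA was present in 17 of the 28, and in 14.2% of all promoters. Kprp, also called lower in this run, is not printed, so the windows shown do not cover every called gene of the run. A match describes the letters only.

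Rptn, which has an AP-1 motif and a TATA box in the window above, measured 1.06, 0.05, 0.26 and 1.51 in carcinomas 1 to 4, and no value was present for carcinomas 5 and 6. In the 9 low-risk papillomas its lowest, median and highest levels were 2.31, 4.33 and 6.41, so every carcinoma lay below every low-risk papilloma. The log2 change was -3.46 (SE 0.63), an 11.04-fold lower ratio (limma adjusted p = 0.00914), and the call held in all 15 fits that left out 1 tumour. Within the shared set the change was -2.57 (adjusted p = 0.159), and with equal spreads -2.35 (adjusted p = 0.071). Rptn stood at 4.11 ± 1.23 in high-risk papillomas and at 0.20 ± 0.50 in normal skins (SD).

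Sprr2b measured 0.72, 0.87, 0.17 and 0.61 in carcinomas 1 to 4, against 1.13, 2.66 and 4.12 as the lowest, median and highest of the low-risk papillomas. The groups did not overlap, and the change was -2.09 (SE 0.43, limma adjusted p = 0.0202). Lce1i ran from 0.05 to 2.31 in the 6 carcinomas with a median of 0.96, against 2.73 to 4.95 with a median of 3.86 in low-risk papillomas. Its change was -2.83 (SE 0.70, adjusted p = 0.0395) with no overlap, and its call held in 4 of the 15 fits that left out 1 tumour. Kprp measured -0.28 to 1.61 in carcinomas and 1.57 to 4.16 in low-risk papillomas, so that only the highest carcinoma, number 6, reached into the low-risk range. Its change was -1.84 (SE 0.42, adjusted p = 0.0265).

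The 28 precursors that did not pass had log2 changes of -3.13 (Sprr2h) to -0.27 (Hrnr). The best-known members did not pass. Lor, loricrin, averaged 0.90 ± 0.44 in carcinomas and 1.21 ± 1.22 in low-risk papillomas (SD, n = 6 and 9), a change of -0.32 that became 0.41 with equal spreads. Ivl, involucrin, averaged -1.23 ± 0.55 and -0.31 ± 0.65 in carcinomas and low-risk papillomas (n = 6 and 8, adjusted p = 0.181), and Flg, filaggrin, 1.32 ± 0.73 and 2.80 ± 1.45 (n = 6 and 8, adjusted p = 0.178). Within the shared set 30 of the 32 precursors had a change below 0 with a median of -1.34, and 0 passed. Probes of the Sprr2 and Lce1 families can share sequence with near copies, so the members of each may not be told apart.

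Along the run on chromosome 3, 32 of 51 protein-coding genes were tested, 31 had a change below 0 and the median was -1.51. Of these 32, 29 are envelope precursors counted above. Lelp1 was the exception, with -0.32, -0.52, -1.59 and -0.56 in carcinomas 1 to 4, against -3.64, -2.88 and -1.54 as the lowest, median and highest of 8 low-risk papillomas. It was 4.11-fold higher in carcinomas (change 2.04, SE 0.40, limma adjusted p = 0.0149), with 1 carcinoma just inside the low-risk range. Its level lay below 0 in every tumour of both groups.

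**Figure D2:**
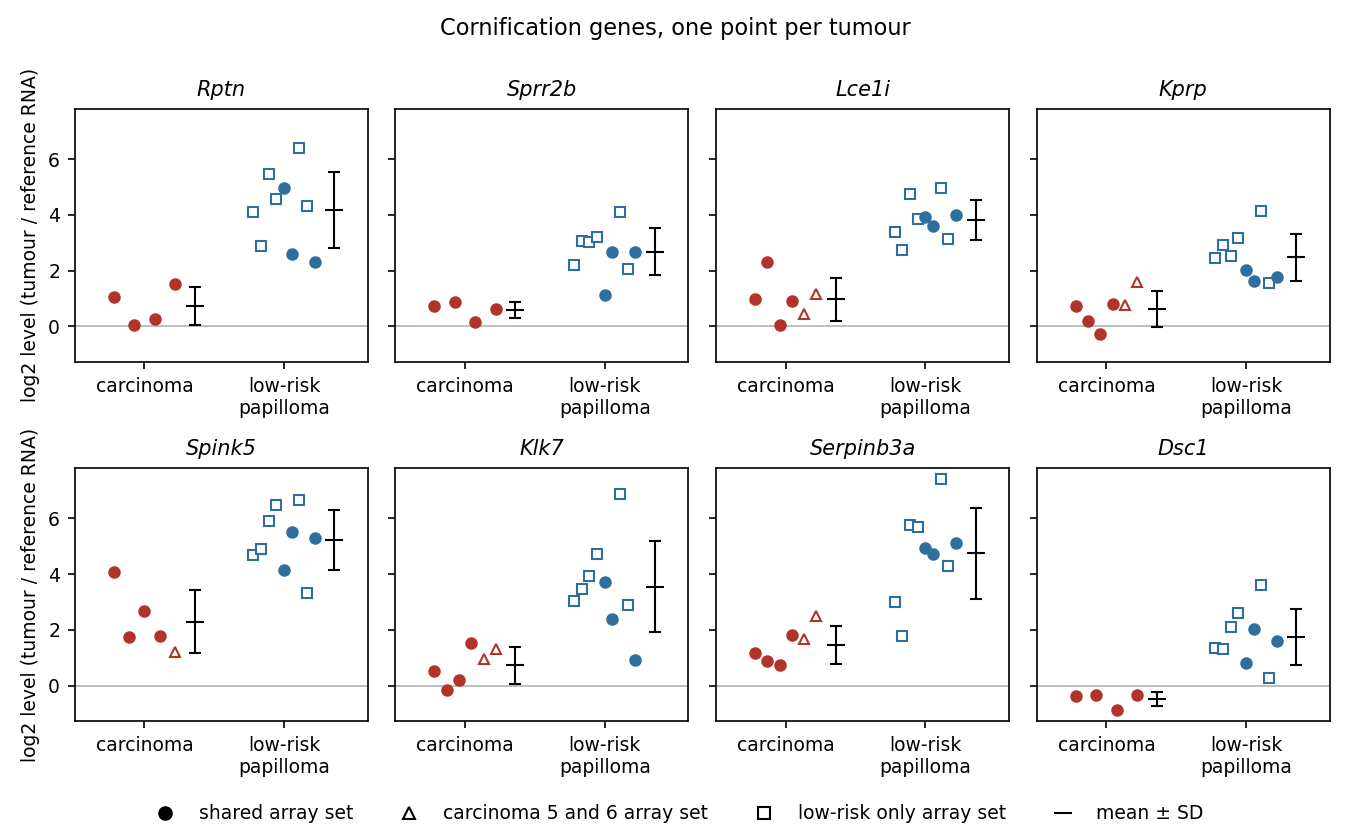
Log2 level (tumour over reference RNA) of 8 genes of late keratinocyte maturation, one point per tumour, with carcinomas on the left and low-risk papillomas on the right of each panel; symbols give the array set, bars the mean ± SD. Rptn, Sprr2b, Lce1i and Dsc1 do not overlap between the groups, and in the other 4 panels at most a few tumours do.

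**Figure D3:**
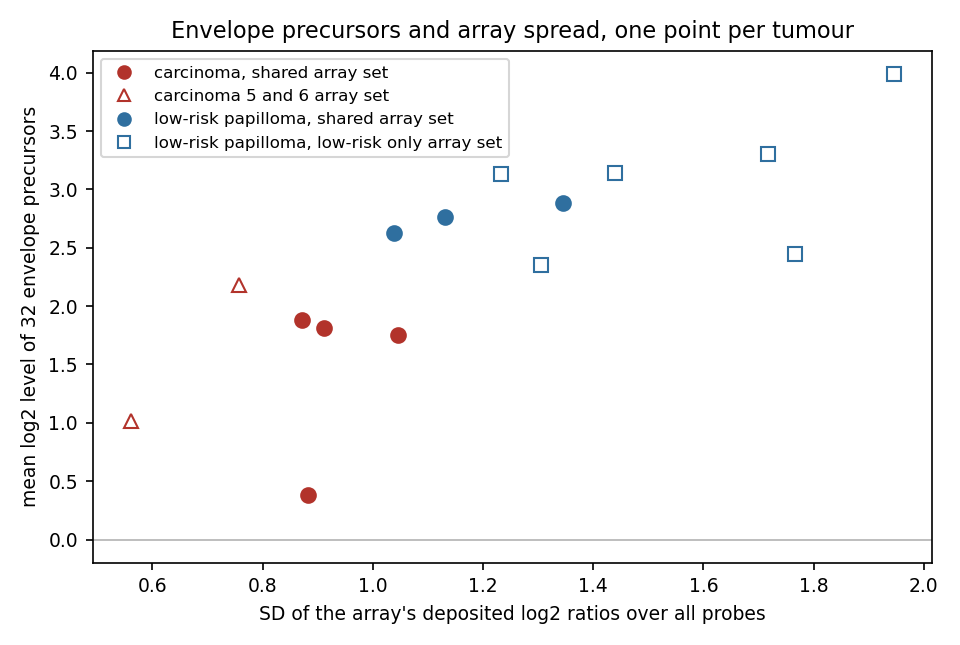
Mean log2 level of those of the 32 tested envelope precursors with a value in each tumour (y axis). The x axis is the SD of the deposited log2 ratios over all probes of its array. For the tumour on 2 arrays it is that of the array with the sample in Cy3. The carcinomas lie at 0.38 to 2.18 and SDs of 0.561 to 1.05, the low-risk papillomas at 2.35 to 3.99 and 1.04 to 1.95.

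The enzymes that cut the joints of the horny layer, and their inhibitors, held 3 genes that fell, 0 that rose and 19 that did not pass among 22 tested, with a median of -0.999 and 8 members above 0. The median was -0.57 within the shared set, and with equal spreads it was -0.16, with 12 members below 0, 10 above and 0 called. Klk7, the kallikrein that cleaves corneodesmosomes, had a lowest, median and highest level of -0.17, 0.74 and 1.53 in carcinomas and of 0.90, 3.46 and 6.86 in low-risk papillomas. Its change was -2.82 (SE 0.71, limma adjusted p = 0.0433), and low-risk papilloma 10, at 0.90, lay inside the carcinoma range. Spink5, the inhibitor of that protease family, fell as well: 1.21 to 4.08 in the 5 carcinomas with a value, against 3.33 to 6.67 in low-risk papillomas (change -2.91, SE 0.71, adjusted p = 0.0389). Protease and inhibitor were thus both lower in carcinomas. Serpinb3a, a serpin that blocks cysteine and serine proteases, measured 0.73, 1.41 and 2.50 as lowest, median and highest in carcinomas and 1.78, 4.95 and 7.40 in low-risk papillomas. Its change was -3.29 (SE 0.75, adjusted p = 0.0265), and it was one of the genes that passed within the shared set, at -3.79 (adjusted p = 0.00429). With equal spreads its change was -1.88 (adjusted p = 0.242). Klk6 at -2.76 (adjusted p = 0.0665) did not pass.

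In the lipid barrier, the sheets of ceramide that seal the horny layer, 0 of 14 genes passed limma's adjusted test, 2 had an unadjusted p under 0.05, and the median was -0.53, which was -0.14 within the shared set. Elovl4, which makes the very long fatty acids of these ceramides, had a change of -2.66 (SE 0.69, limma adjusted p = 0.0505), just outside the threshold, with 0.21 to 3.89 in carcinomas and 3.00 to 6.29 in low-risk papillomas. Aloxe3, an epidermal lipoxygenase, was at -1.58 (adjusted p = 0.168). Of the enzymes that cross-link or process the envelope 0 of 6 passed (4 at an unadjusted p under 0.05), with a median of -0.75 that was -0.02 within the shared set. Tgm1, the main cross-linking transglutaminase, averaged 1.98 ± 0.91 in carcinomas and 2.98 ± 1.00 in low-risk papillomas (SD, n = 6 and 9, adjusted p = 0.279), and its change of -1.005 became 0.37 within the shared set. Asprv1, the protease that processes filaggrin, was at -1.81 (adjusted p = 0.0886).

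Desmosomes and adherens junctions had 1 gene fallen, 0 risen and 18 that did not pass, with a median of -0.95. The gene that fell was Dsc1, the desmosomal cadherin of the uppermost living layers, at -0.39, -0.33, -0.86 and -0.34 in carcinomas 1 to 4, against 0.27 to 3.61 in low-risk papillomas with a median of 1.603. All 4 carcinomas lay below all 9 low-risk papillomas (change -2.22, SE 0.50, limma adjusted p = 0.0322). A second Dsc1 probe, with values in 3 carcinomas and 6 low-risk papillomas, differed by -1.02. Jup, plakoglobin (-1.34, adjusted p = 0.0795), and the cadherins Dsc2 (-1.37, adjusted p = 0.131) and Dsg1a (-1.12, adjusted p = 0.159) did not pass. The list's median was -0.08 within the shared set and 0.03 with equal spreads, so its direction depends on the scaling.

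Keratins did not pass in any of 3 classes. In the epidermal, hyperproliferation and simple-epithelium classes 3 of 10, 0 of 4 and 3 of 6 members had an unadjusted p under 0.05. Over all probes tested 3045 of 18904 had one. Epidermal keratins had 0 of 10 members past the test and a median of -0.66, which was -0.12 with equal spreads. Krt1, a keratin of the first layers above the basal one, averaged 1.05 ± 0.88 in carcinomas and 1.90 ± 1.15 in low-risk papillomas (SD, n = 4 and 9, limma adjusted p = 0.442). Its partner Krt10 averaged 0.61 ± 0.42 and 1.40 ± 1.00 (n = 6 and 9, adjusted p = 0.27). Krt6a, a keratin of wounded and hyperproliferative epidermis, was high in both groups, at 3.55 ± 0.83 in carcinomas and 4.40 ± 1.65 in low-risk papillomas (n = 6 and 9), and its change of -0.85 became 1.16 with equal spreads. Krt6b, Krt16 and Krt75, of the same class, had changes of -0.33, -0.91 and -0.50, and none passed. Keratins of simple epithelia, which inner organs use and which skin carcinomas are known to gain, had 0 of 6 past the test and a median of 0.97, which was 0.39 within the shared set and 0.36 with the set as a block. Krt7 ran from -1.05 to 1.30 in carcinomas and from -3.32 to -0.02 in low-risk papillomas (change 1.67, adjusted p = 0.0701). Krt19 was at 2.32 (adjusted p = 0.0999) and Krt8 at 2.15 (adjusted p = 0.215), and these 2 had values in only 4 and 5 carcinomas. Of the 6 members 4 had a change above 0 and 2 below. Krt20 was at 0.26, Krt23 at -0.15 and Krt18 at -0.63.

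Peptides that the epidermis makes against microbes had 1 gene fallen, 0 risen and 17 that did not pass, with a median of -0.45. With equal spreads the median was 0.09, and 2 members were called higher and 0 lower. Defb3, a beta-defensin, measured 0.20, 1.27 and 2.95 as lowest, median and highest in carcinomas, while 8 of the 9 low-risk papillomas lay at 4.56 to 6.50 and low-risk papilloma 2 at 0.43. The change was -3.69 (SE 0.93, limma adjusted p = 0.0443), a 12.9-fold lower ratio. It passed within the shared set at -4.53 (adjusted p = 0.00429), and it held in 3 of the 15 fits that left out 1 tumour. S100a8, a calcium-binding protein of inflamed epidermis and neutrophils, averaged 3.54 ± 1.22 in carcinomas and 5.07 ± 1.07 in low-risk papillomas (SD, n = 6 and 9, adjusted p = 0.279), with a change of -1.53 that became 0.80 with equal spreads. Ltf, lactoferrin, measured -0.45 to 3.06 in 5 carcinomas and -10.63 to -0.20 in low-risk papillomas (change 4.52, adjusted p = 0.0505).

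In the interleukin-1 family 1 of 16 genes fell, 0 rose and 13 had a change below 0, with a median of -0.44. Within the shared set 9 lay below 0 and 0 passed, and with equal spreads 10 lay below 0, the median was -0.13 and 0 passed. Il1f6, the epidermal cytokine interleukin-36 alpha, measured 0.24, 0.39 and 1.24 as lowest, median and highest in carcinomas and 1.24, 2.67 and 4.66 in low-risk papillomas. The groups touched but did not overlap (change -2.46, SE 0.53, limma adjusted p = 0.0184). Il1b, interleukin-1 beta, also did not overlap, at 0.56 to 2.79 in 5 carcinomas and 2.82 to 6.79 in low-risk papillomas, and did not pass (change -2.22, adjusted p = 0.0845). Il1f5, an antagonist of the same branch, was at -2.88 (adjusted p = 0.0967). In the list of tumour necrosis factor and NF-kB signalling 1 of 20 fell, and it was Traf2, the adaptor that couples the receptors to kinases. Traf2 measured 0.00, 0.43 and 1.36 in carcinomas as lowest, median and highest, against 2.27, 3.31 and 5.80 in low-risk papillomas (change -3.16, SE 0.50, adjusted p = 0.00247). The groups were apart, and the call held in all 15 fits that left out 1 tumour. The other 19 had log2 changes of -0.67 to 0.45, and with equal spreads 0 of the 20 passed.

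Ppbp, the chemokine that platelets release, gave the smallest p of all probes. Carcinomas 1 to 4 measured 3.71, 3.21, 3.11 and 2.11, and carcinomas 5 and 6 had no value. The 9 low-risk papillomas lay between -0.62 and 0.84, with a median of 0.46, so the groups stood well apart. The log2 change was 2.67 (SE 0.29, limma adjusted p = 5.17e-05), a 6.38-fold higher ratio. It was 2.55 within the shared set (adjusted p = 0.0573) and with the set as a block (adjusted p = 0.0204), and 3.19 with equal spreads (adjusted p = 5.34e-08). High-risk papillomas averaged 1.01 ± 0.50 and normal skins -0.53 ± 0.28 (SD). Of the 38 chemokines and receptors tested Ppbp alone rose and 0 fell, with a median of 0.13. Cx3cl1, fractalkine, did not overlap between the groups but did not pass (change -2.08, adjusted p = 0.0663), and Cxcl5, a neutrophil attractant, was at 1.26 (adjusted p = 0.181).

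Of 30 markers of macrophages 21 had a change above 0, against 9348 of 18904 over all probes tested, and the median was 0.47. Of the 30, 1 rose and 0 fell, where 0.354% of all probes were called higher. Of the 9 below 0 the lowest were Fcer1g (-1.68), Fcgr1 (-0.72) and Csf1 (-0.58). Lyz1, a lysozyme, measured -1.36, -0.12 and 1.53 as lowest, median and highest in carcinomas and -3.47, -2.09 and -1.36 in low-risk papillomas. The groups met at one point without overlapping (change 2.14, SE 0.47, limma adjusted p = 0.0211). The main macrophage lysozyme Lyz2 was at 2.93 (adjusted p = 0.0578), but a second Lyz2 probe differed by -0.74. Adgre1, the F4/80 antigen that defines mouse macrophages, averaged 0.15 ± 0.30 in carcinomas and -1.28 ± 2.45 in low-risk papillomas (SD, n = 6 and 7, adjusted p = 0.319). The list's mean, over those of its 30 genes with a value, was -0.07 to 0.68 in carcinomas and -0.79 to 0.41 in low-risk papillomas. Its part in other results was not tested. Among 12 neutrophil genes Plac8, a small protein of myeloid and some epithelial cells, rose and 0 fell. The list had 7 changes above 0 and 5 below, Chil1 lowest at -1.39, with a median of 0.11 (-0.35 within the shared set). Plac8 measured -0.84 to 1.495 in carcinomas and -4.07 to -1.05 in low-risk papillomas, with no overlap (change 2.50, SE 0.52, adjusted p = 0.0149). Ly6c1, a surface protein of monocytes and endothelium, rose too, with 0.39 to 1.88 in 5 carcinomas and -2.21 to 0.02 in 8 low-risk papillomas (change 1.76, SE 0.43, adjusted p = 0.042).

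Genes of blood, haem and iron went both ways: 2 rose, 1 fell and 18 did not pass among 21. Hbb-b2, a beta-globin chain, measured -3.40, -2.05 and -0.38 as lowest, median and highest in carcinomas and -6.21, -5.24 and -2.42 in low-risk papillomas (change 2.77, SE 0.67, limma adjusted p = 0.0344). The alpha-globin gene Hba-a1, in contrast, averaged -0.39 ± 0.81 in carcinomas and -0.33 ± 0.77 in low-risk papillomas (SD, n = 6 and 9, adjusted p = 0.968). Ftl1, the ferritin light chain that stores iron, rose 3.71-fold, with -1.58 to 0.49 in carcinomas and -3.14 to -1.17 in 8 low-risk papillomas. Its change was 1.89 (SE 0.36, adjusted p = 0.00914) over all tumours and 2.93 within the shared set, where it also passed (adjusted p = 0.0425), and 0.95 with equal spreads (adjusted p = 0.366). The ferritin heavy chain Fth1 was at 0.94 (adjusted p = 0.198). Hamp, hepcidin, the hormone that blocks iron export, fell, with 0.53 to 2.94 in carcinomas and 2.35 to 5.77 in low-risk papillomas (change -2.63, SE 0.58, adjusted p = 0.0208).

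Among 52 genes of glutathione, thioredoxin and drug metabolism 3 rose, 1 fell and the median was 0.08. Both superoxide dismutases that use copper and zinc rose. Sod1, the cytosolic enzyme, measured -1.94, -1.25 and -0.70 as lowest, median and highest in carcinomas and -3.10, -2.75 and -1.51 in low-risk papillomas (change 1.26, SE 0.31, limma adjusted p = 0.0387). Sod3, the extracellular enzyme, measured -2.22 to -0.14 in carcinomas and -4.32 to -1.72 in 8 low-risk papillomas (change 2.09, SE 0.46, adjusted p = 0.0235). With equal spreads their changes were 0.33 and 0.96, and neither passed. Ugt2b37, an enzyme that couples drugs and steroids to glucuronic acid, ran from -0.64 to 0.53 in carcinomas and from -3.50 to -0.84 in low-risk papillomas with no overlap (change 1.82, SE 0.37, adjusted p = 0.0131). Aox4, an aldehyde oxidase of skin, was the gene that fell, with -1.45 to 1.01 in carcinomas and 1.07 to 4.87 in low-risk papillomas (change -3.03, SE 0.70, adjusted p = 0.0282). Near-identical Ugt2b genes may share the signal of the Ugt2b37 probe.

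Galectins, lectins that bind galactosides, split: of 9 tested Lgals1 rose, Lgals2 fell and 7 did not pass. Lgals1, made by mesenchymal and many tumour cells, measured -1.11, -0.47 and 1.03 as lowest, median and highest in carcinomas and -2.44, -2.09 and -0.62 in low-risk papillomas (change 1.53, SE 0.35, limma adjusted p = 0.0265). Lgals2 measured -0.03, 0.23 and 1.52 in carcinomas and 1.45, 3.38 and 3.79 in low-risk papillomas (change -2.56, SE 0.46, adjusted p = 0.00528). The ranges of Lgals1 overlapped between -1.11 and -0.62, and those of Lgals2 only at their edge. Fibroblast and collagen genes had 0 of 26 past the test (7 at an unadjusted p under 0.05), with 20 above 0 and a median of 0.50 (0.36 with equal spreads). P4ha1, a collagen hydroxylase, came closest (change 0.91, adjusted p = 0.0659) and passed with equal spreads at 1.05 (adjusted p = 0.0474). Col6a3, a collagen VI chain, was at 0.87 (adjusted p = 0.204), and its 2 other probes differed by -1.24 and 0.54. Of 20 mesenchymal genes Lgals1 was again the 1 that rose. Acta2, smooth muscle actin, was at 1.66 (adjusted p = 0.125).

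**Figure D4:**
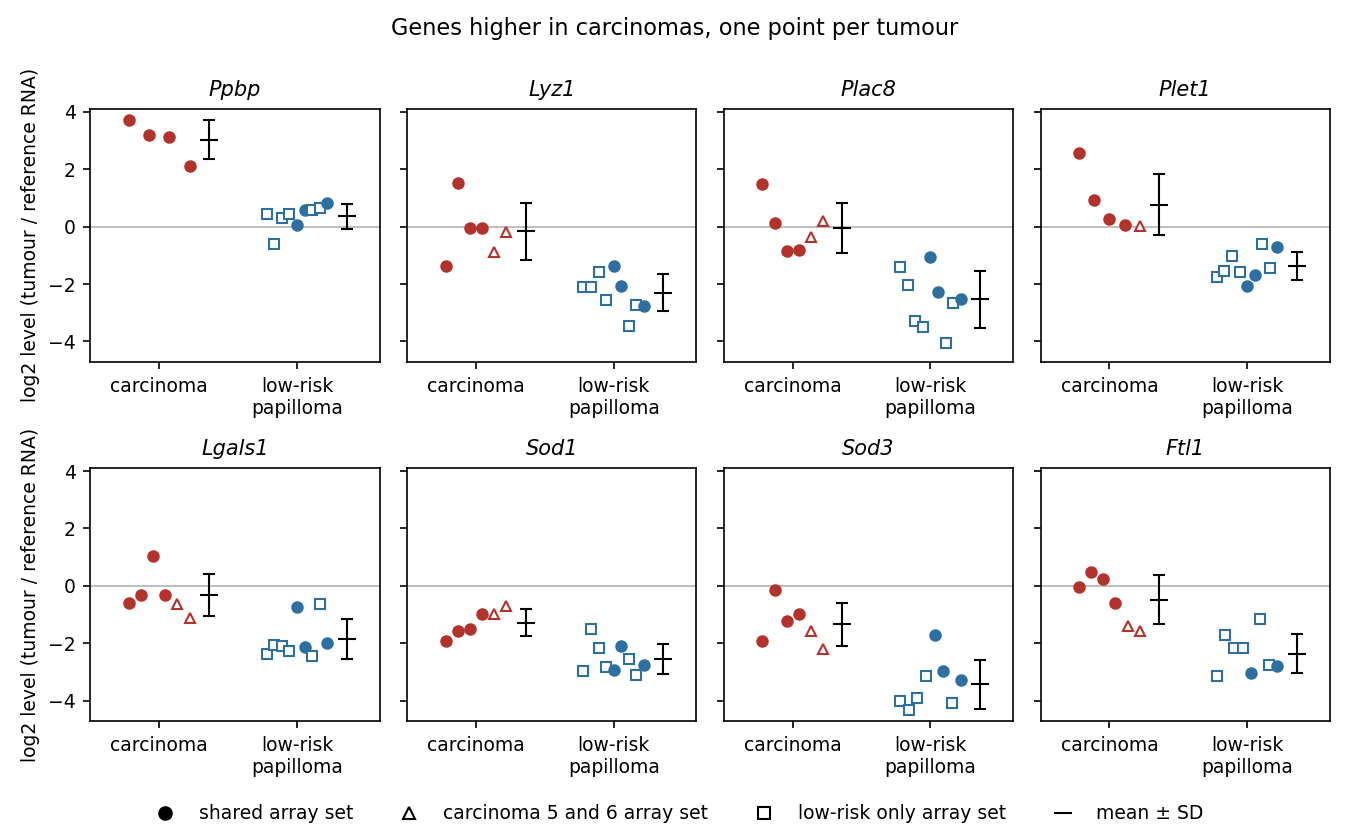
Log2 level (tumour over reference RNA) of 8 genes called higher in carcinomas, one point per tumour, with carcinomas on the left and low-risk papillomas on the right of each panel; symbols give the array set, bars the mean ± SD. Ppbp has values in 4 carcinomas, all at 2.11 or above, against at most 0.84 in low-risk papillomas; Lyz1, Plac8 and Plet1 do not overlap either.

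Jdp2, a repressor that pairs with Jun in AP-1, measured 0.11, 0.30 and 1.18 as lowest, median and highest in carcinomas and -1.56, -0.77 and -0.24 in low-risk papillomas, with no overlap (change 1.27, SE 0.24, limma adjusted p = 0.00914). It kept its call in all 15 fits that left out 1 tumour and with equal spreads. Dusp4, a phosphatase that switches off mitogen-activated kinases, was the 1 gene called of 30 in the list of EGF receptor and Ras signalling, and rose 1.87-fold (change 0.90, SE 0.22, adjusted p = 0.0381). Lfng, a glycosyltransferase that tunes Notch receptors, rose 2.27-fold (adjusted p = 0.0219), and the transcription factor Osr2 3.79-fold (adjusted p = 0.0105). Saraf, which damps calcium entry from outside the cell, was at 1.83 to 3.80 in carcinomas and -0.30 to 2.32 in low-risk papillomas (change 2.32, SE 0.49, adjusted p = 0.0184). Plet1, a surface protein of hair follicle progenitor cells, measured 2.55, 0.92, 0.27, 0.05 and 0.03 in carcinomas 1 to 5 and at most -0.60 in low-risk papillomas (change 2.14, SE 0.46, adjusted p = 0.0208).

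The other genes of smallest p that rose were Morn5, with a change of 2.69 (limma adjusted p = 0.00247), Tex38 at 1.98 (adjusted p = 0.00528), and Pnmt, which makes adrenaline, at 2.22 (adjusted p = 0.0105). Wfs1, a protein of the endoplasmic reticulum, was at 1.09 (adjusted p = 0.0232). Pnmt did not overlap, though carcinoma 3 stood alone at 2.67 above the next at 0.07. Igtp, an interferon-induced GTPase, rose 3.58-fold (adjusted p = 0.0461), and of 39 interferon and class I genes it was the only one past the test. Without overlap and higher were also the glutamate transporter Slc1a2 (change 1.31, adjusted p = 0.0443) and AY036118 (1.59, adjusted p = 0.0328). The same held for the pseudogene Gpx4-ps1 (1.46, adjusted p = 0.027), which shares sequence with its parent gene. The other Slc1a2 probes differed by 1.37 and 0.12.

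The genes of smallest p that fell had varied roles. Lmod2, a leiomodin that nucleates actin in striated muscle, measured -0.04, 1.03 and 1.52 as lowest, median and highest in carcinomas and 2.84, 3.60 and 4.62 in low-risk papillomas (change -2.73, SE 0.38, limma adjusted p = 0.000349). It was the 1 gene of 27 in the muscle list that passed. App, the amyloid precursor protein, fell by 1.94 on the log2 scale (adjusted p = 0.0019), while its other probe differed by 0.47. Fut7, the fucosyltransferase that completes selectin ligands, measured -0.66 to 0.05 in 5 carcinomas and 1.02 to 2.52 in low-risk papillomas (change -2.02, SE 0.31, adjusted p = 0.00247). Fut7 passed within the shared set and with equal spreads as well, at -1.89 (adjusted p = 0.0425) and -1.79 (adjusted p = 0.0089). Further falls were those of Lrif1, a nuclear receptor-interacting factor (-2.18, adjusted p = 0.0019), Smyd5, of a methyltransferase family (-2.60, adjusted p = 0.00247), and Daam1, a formin (-2.03, adjusted p = 0.00528). Armc9, a protein of cilia, was at -2.05 (adjusted p = 0.00273), Ear3, an eosinophil-associated ribonuclease, at -2.35 (adjusted p = 0.00616), and Vps37a, of the endosomal sorting complex, at -2.58 (adjusted p = 0.0086). Ear3 has near-identical relatives, and the other Vps37a probe differed by -0.0016. Sec14l2 and Tom1l2 were at -1.38 and -1.32 (both adjusted p = 0.00616).

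The larger falls without overlap included Sppl2b, an intramembrane protease, with 0.11 to 1.67 in carcinomas and 1.91 to 6.53 in low-risk papillomas (change -3.57, SE 0.83, limma adjusted p = 0.0282), which passed within the shared set at -2.73 (adjusted p = 0.0404). Rbm12, an RNA-binding protein, was at -2.99 (adjusted p = 0.0132), the kinase Nek4 at -2.71 (adjusted p = 0.0202), 4930556N13Rik at -3.35 (adjusted p = 0.00528) and 2310026I22Rik at -2.998 (adjusted p = 0.00937). Single members of other lists that fell were Sqle, an enzyme of sterol synthesis (-0.93, adjusted p = 0.042), Akr1c18, a reductase of progesterone and prostaglandins (-1.25, adjusted p = 0.0203), and Krtap6-1, a hair protein (-1.93, adjusted p = 0.0387). Measured values did not overlap for 43 probes with carcinomas higher (0.227%) and for 141 with carcinomas lower (0.746%), 16 and 69 of them among the called.

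Genes of proliferation did not pass. Of 56 genes of replication and mitosis 0 passed limma's adjusted test, 7 had an unadjusted p under 0.05, and the median was -0.20. Over all probes tested 3045 of 18904 had an unadjusted p under 0.05. Of 34 cyclins, their kinases and p53 genes 0 passed, with a median of 0.02, and of 57 ribosomal protein genes 0, with 4 and 10 at an unadjusted p under 0.05. The ribosomal genes had a median of -0.28 that became 0.22 with equal spreads. Metalloproteases, which cut matrix, had 0 of 33 past the test, 6 at an unadjusted p under 0.05 and a median of -0.08. Markers of T cells (25 tested, median -0.30), B cells (10, -0.13), mast cells (15, -0.12), endothelium (20, 0.09), adipocytes (16, -0.25) and melanocytes (10, -0.10) had 0 members past the test each, and 4, 3, 1, 3, 5 and 1 members, in that order, at an unadjusted p under 0.05. In all, 27 of the 46 lists had 0 members called.

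**Figure D5:**
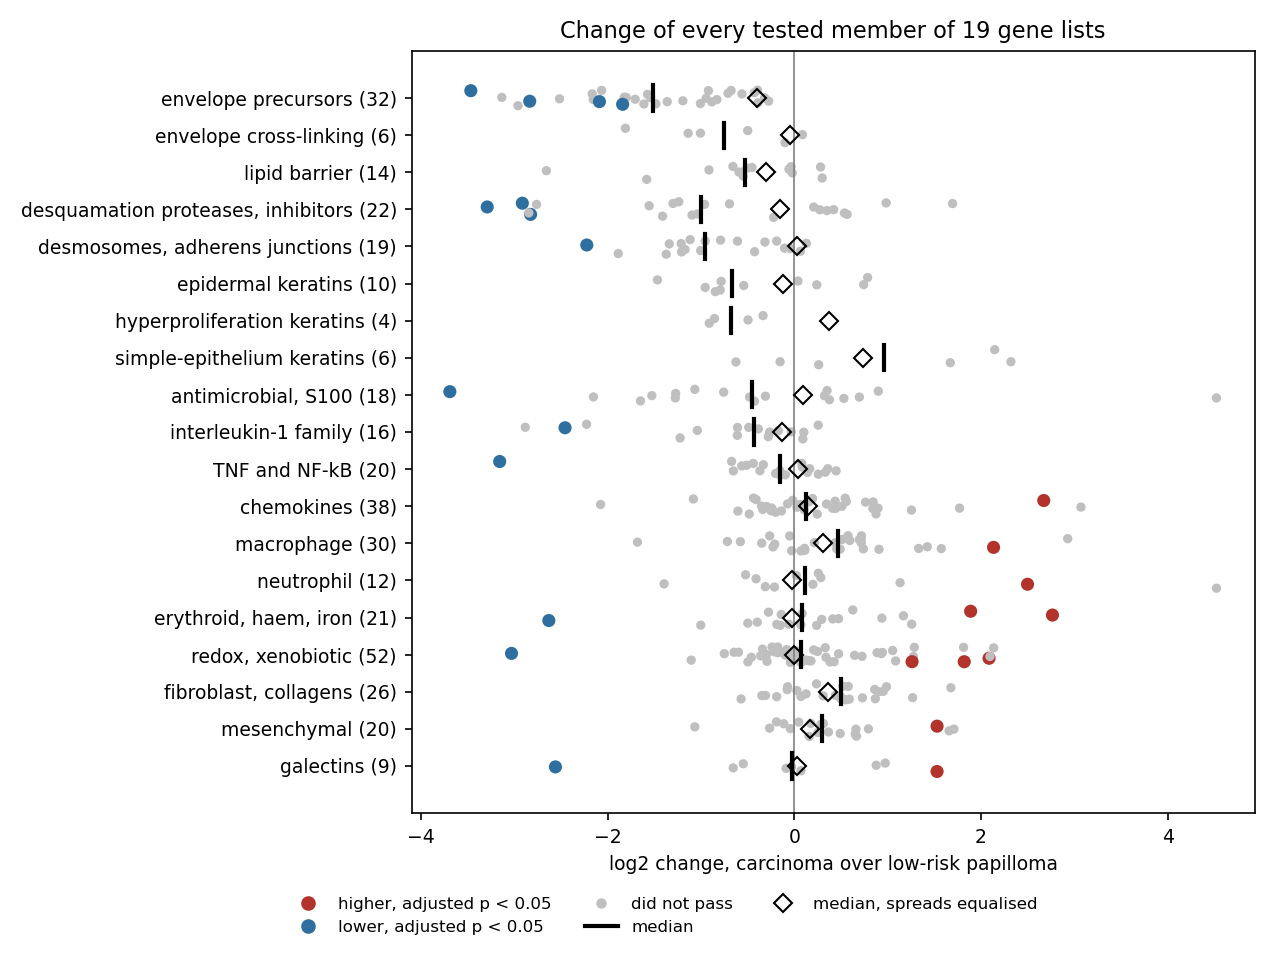
Log2 change (carcinoma over low-risk papilloma) of every tested member of 19 gene lists, with the number tested in brackets; red and blue points passed in the direction named, the bar is the list's median and the diamond its median after the array spreads were made equal. Envelope precursors have the lowest median, -1.51, and simple-epithelium keratins the highest, 0.97 (0.39 within the shared array set); the diamonds lie nearer to 0 for every list shown except chemokines.

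Levels in high-risk papillomas and normal skins are given as a description, since the array sets differed between the groups. Of the 10 high-risk papillomas 4 lay in a set of their own, 4 in the set of carcinomas 5 and 6, 1 in the shared set and 1 with most normal skins. Of the 6 normal skins 4 lay in a set with no carcinoma or low-risk papilloma, 1 in the set of carcinomas 5 and 6, and 1 in the shared set. The means below include carcinoma 6, where it has a value, and normal skin 1, whose arrays were nearly identical. Limma called 219 probes (1.16%) between carcinomas and normal skins, 1427 (7.55%) between low-risk papillomas and normal skins, and 8 (0.0423%) between carcinomas and high-risk papillomas. These comparisons share samples and include the near-identical pair, and they were not run within an array set, so the counts are not set against each other. Rptn, Spink5 and Serpinb3a averaged 0.72, 2.30 and 1.46 in carcinomas, 4.11, 4.01 and 3.16 in high-risk papillomas, 4.18, 5.21 and 4.75 in low-risk papillomas and 0.20, 2.50 and 1.82 in normal skins. For these 3 genes the carcinoma mean lay nearer to the normal skin mean than to either papilloma mean, a difference not tested within an array set. These 3 do not stand for all maturation genes called lower, and others lay lower in carcinomas than in normal skins. Dsc1 ran from -0.86 to -0.33 in carcinomas and from -0.12 to 0.86 in normal skins. Klk7 ran from -0.17 to 1.53 in carcinomas and from 0.41 to 3.24 in normal skins, with some overlap. Lyz1 and Plac8 averaged -0.17 and -0.04 in carcinomas, -2.54 and -2.15 in high-risk papillomas, -2.30 and -2.54 in low-risk papillomas and -1.20 and -1.06 in normal skins. Lyz1 and Plac8 were thus highest in carcinomas among the 4 groups, with both papilloma groups below normal skin.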

How the data were processed

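The authors deposited 1 normalised log ratio per probe and array, taken here as log2 from the size of the values, and the scanner files were not used here. The image software, background correction and normalization are not given in the sources used here. The direction, Cy5 over Cy3, was inferred from the dyes, so every array with the sample in Cy3 was negated. Each array was centred on its median, and the 2 arrays of the dye-swapped tumour were averaged. That array's title numbers it as another tumour and its source name as the same one, and 1 further low-risk array carries different numbers in title and source name (the title was used).

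Probes measured in at least 3 replicates of each group and in 70% of all replicates were tested, 18904 of 21997. Limma 3.58.1 in R 4.3.3 fitted 1 model of the 4 groups, with Benjamini-Hochberg adjustment over all tested probes and a threshold of 0.05. The model was run on simulated data with independent noise and neither array sets nor shared tumour codes. That run therefore cannot show how these affect the calls. A gene with several probes was named from the probe with most values. Of the probes 16076 had 1 symbol in the platform annotation, 288 several and 5633 none. The p-values rest on the spread between replicates within all 4 groups, high-risk papillomas and normal skins included. Some of the tumours may share a mouse.

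The members and gene lists were chosen with earlier results of these data known. Named were called genes of any list, the 15 called genes of smallest p per direction, up to 4 members of smallest p in each of 19 described lists, and up to 10 called genes per direction without overlap. Lor, Ivl, Flg, S100a8, Hba-a1, Fth1, Krt1 and Adgre1 were added after their values were seen. Of the members that the rule named and that did not pass, the text gives the values of some. Alternatives changed the scaling, filter, probe choice, dye-swapped array, array set, database range, replicate block, model and tumours included. The 10 unlabelled papillomas on a second array design were not analysed here.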

Additional observations from a re-analysis of the deposited data

Results flagged for a closer look

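In 7 of the 116 groups of values examined, 1 tumour stood far from the rest of its group by Dixon's test. Chance flags about 5% of groups, so this count is near what chance gives, and the flags are listed as a description only. Of the 7, 3 lay in a single tumour, carcinoma 3: Dsc1 was lowest there at -0.863, against -0.391 for the next carcinoma, Lgals1 was highest at 1.03, against -0.316, and Pnmt was highest at 2.67, against 0.073. Il1f6 was highest in carcinoma 6 at 1.24, with the next carcinoma at 0.531. Defb3 was lowest in low-risk papilloma 2 at 0.434, with the next at 4.56, Pnmt was lowest in low-risk papilloma 8 at -3.81, with the next at -2.31, and Wfs1 was lowest in low-risk papilloma 1 at -2.68, with the next at -1.80.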

How the results depend on the processing

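Against 212 probes called (67 higher, 145 lower), 116 were called with equal array spreads (67 lower) and 92 lower after quantile normalization. Within the shared array set 19 were called (6 higher, 13 lower) and with the set as a block 1 (1 higher, 0 lower, Ppbp). Higher calls numbered 43 without the near-identical pair of arrays, 43 with a replicate block and 28 in a fit of the 2 groups alone, and array weights gave 1524 (623 higher, 901 lower). Same-numbered tumours did not deviate together (median r -0.166 over 5 pairs), so the replicate block rests on a shared number alone. Leaving out 1 tumour gave 51 (without carcinoma 3) to 739 (without low-risk papilloma 6) calls, 14 to 383 higher and 33 to 356 lower. Totals were 96, 65, 113, 126 and 129 without carcinomas 1, 2, 4, 5 and 6, and 126, 90, 138 and 118 without low-risk papillomas 1, 5, 8 and 10. Without low-risk papilloma 4 the higher calls numbered 109. The 58 named genes that passed kept their direction in the 33 settings wherever they were tested, which their choice on the same tumours largely fixes.

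Directions turned for some medians and genes that had not passed. With equal spreads and after quantile normalization the medians became 0.031 and 0.088 (desmosomes), 0.37 and 0.52 (hyperproliferation keratins), 0.092 and 0.10 (antimicrobial genes) and 0.26 and 0.43 (keratinocyte markers), and epidermal keratins became 0.050 after quantile normalization. In the same order Krt6a became 1.16 and 1.00, Krt6b 0.83 and 0.99, Lor 0.41 and 0.40, S100a8 0.80 and 0.10, and Tgm1 0.18 and 0.14, and Krt16 became 0.059 after quantile normalization. Tgm1 was 0.41 with the set as a block and 0.37 within it, Krt6b 0.0004 within it and -0.614 to 0.042 with 1 tumour left out (highest without carcinoma 5), Krt75 0.12 with the replicate block, and Col6a3 -0.088 as a mean of its probes. Hba-a1 was 0.0054 without centring, 0.0014 without the swapped array and 0.0212 in the later range, and -0.234 to 0.236 with 1 tumour left out (without carcinomas 4 and 3), with 0.0031, 0.1232 and 0.0318 without low-risk papillomas 2, 4 and 7. The cause of these changes was not tested. The number of arrays and empty probes, up to 26.0% of an array, limit the precision.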
